A study of Mus musculus with 24 samples.

Results

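The synaptic vesicle and neurosecretory genes of Neuro2A cells were followed as a set of 38 members, listed by symbol and sorted into 7 role groups. A member was kept for testing when its row of the count table reached at least 0.5 CPM (counts scaled to the same library total in every sample) in at least 3 samples. All 38 symbols were found in the table, and 35 passed this limit, out of 13901 genes that passed it among the 39253 listed. The remaining 3, Rims1, Cadps and Pcsk1, were near the counting floor in every sample.

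Neuro2A is a mouse neuroblastoma line with wild-type genotype. Plasmids encoding 1 of 3 RNA-targeting CRISPR effectors, RfxCas13d, its high-fidelity variant HiFi-RfxCas13d or DiCas7-11, were transfected together with either a crRNA against mouse ataxin-2 (mATXN2) or a non-targeted crRNA (NTG), and cells were harvested 48 hr later. An untransfected group and a group treated with an ataxin-2 antisense oligonucleotide (ASO) completed the design, so that 8 groups of 3 independent biological replicates, 24 samples, were sequenced. Expression from the plasmids (CAG promoter for RfxCas13d) was transient, and no sorting step and no route of delivery for the ASO are given in the sources used here. Against untransfected cells, an effector with NTG cannot be told apart from transfection itself, nor the ASO from its delivery. The labels call the control arm NTG, whereas its columns in the count table carry a different abbreviation, and the number of the mATXN2 crRNA also differs between labels and columns, so what the arms received is taken from the labels. In a bulk sample, fewer cells that express a gene and less RNA of it per cell cannot be told apart either.

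Neurons and neuroendocrine cells release transmitters from small synaptic vesicles and peptides from dense-core granules, and both kinds of vesicle fuse through SNARE proteins on the vesicle and the plasma membrane. Synaptotagmins sense the calcium that triggers fusion, while priming factors, complexins and Rab3 proteins dock vesicles and hold them ready. Granins fill the dense-core granules, where convertases and carboxypeptidase E trim prohormones, and in noradrenergic cells, the lineage to which neuroblastomas belong, catecholamines are made by tyrosine hydroxylase and its partners and loaded by the vesicular monoamine transporters.

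Several of these genes are textbook targets of the cAMP response element and of the repressor REST, so the letters of both elements were searched on both strands of the RefSeq promoter windows (build GRCm38.p6, 250 bases before to 50 after the start of a gene). A window was found for 32 of the 38 members. Syt4, Snap25, Vamp2, Vgf, Cpe and Slc18a1 have no entry in the table used. The cAMP response element, TGACGTCA, stood in the windows of 6 members, Syn1, Chgb, Scg2, Pcsk1, Th and Slc18a2, which is 18.8% of the members with a window, against 2.03% of all 27025 genes with a window. It stood in 5 of the 29 tested members with a window and in 3.61% of the 10839 tested genes with one. Its core TGACG, which the full element contains, was present in 16 of the 32 members, 15 of the 29 tested ones and 34.6% of the tested genes. The letters GGTGCTGAA of the REST element stood in Unc13a, Syn1 and Scg2, and in 0.517% of the tested genes. The 6 promoters with the full element are shown because they range from the most abundant member to one with almost no reads. Each line runs 5′ to 3′ on the strand of the gene, from 250 bases before the start to 4 bases after it, and capitals mark the cAMP response element and, in Syn1 (as its reverse complement) and Scg2, the REST letters.
Chgb (chr2:132781392-132781645, plus strand): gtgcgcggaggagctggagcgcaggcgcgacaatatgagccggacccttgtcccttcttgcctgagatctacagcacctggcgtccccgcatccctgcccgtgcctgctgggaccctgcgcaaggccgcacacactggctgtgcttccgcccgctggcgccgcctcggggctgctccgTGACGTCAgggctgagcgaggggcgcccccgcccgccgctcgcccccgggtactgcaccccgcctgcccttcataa
Scg2 (chr1:79440023-79440276, minus strand): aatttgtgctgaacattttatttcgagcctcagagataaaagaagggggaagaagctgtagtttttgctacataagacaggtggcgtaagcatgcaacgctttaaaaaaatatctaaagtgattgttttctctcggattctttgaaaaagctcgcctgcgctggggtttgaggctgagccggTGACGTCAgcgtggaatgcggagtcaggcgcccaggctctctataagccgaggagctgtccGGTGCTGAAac
Syn1 (chrX:20920915-20921168, minus strand): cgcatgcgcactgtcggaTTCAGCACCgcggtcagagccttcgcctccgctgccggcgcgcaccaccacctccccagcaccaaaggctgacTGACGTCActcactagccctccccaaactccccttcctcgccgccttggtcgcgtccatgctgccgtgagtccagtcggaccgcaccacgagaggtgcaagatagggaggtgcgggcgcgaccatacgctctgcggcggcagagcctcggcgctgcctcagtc
Slc18a2 (chr19:59260628-59260881, plus strand): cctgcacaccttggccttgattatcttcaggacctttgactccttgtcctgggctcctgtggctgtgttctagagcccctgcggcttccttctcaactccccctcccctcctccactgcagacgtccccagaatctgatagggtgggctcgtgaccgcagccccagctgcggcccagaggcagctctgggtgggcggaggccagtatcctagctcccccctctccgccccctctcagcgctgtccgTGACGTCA
Th (chr7:142899992-142900245, minus strand): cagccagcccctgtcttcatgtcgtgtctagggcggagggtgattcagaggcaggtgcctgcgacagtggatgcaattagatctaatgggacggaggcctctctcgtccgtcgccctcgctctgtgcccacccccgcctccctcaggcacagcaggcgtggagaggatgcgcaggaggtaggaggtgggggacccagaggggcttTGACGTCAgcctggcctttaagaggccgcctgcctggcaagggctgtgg
Pcsk1 (chr13:75089607-75089860, plus strand): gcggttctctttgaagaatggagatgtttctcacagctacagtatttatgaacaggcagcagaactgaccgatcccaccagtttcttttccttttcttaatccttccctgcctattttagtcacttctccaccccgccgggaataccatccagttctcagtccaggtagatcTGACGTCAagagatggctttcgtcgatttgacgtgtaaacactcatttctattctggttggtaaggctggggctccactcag
The element began 72 bases before the start of Chgb, 68 before that of Scg2, 78 before that of Pcsk1, 45 before that of Th, 159 before that of Syn1 and 4 before that of Slc18a2. In the same 6 genes the mean level ran from 959 CPM for Chgb to 0.917 CPM for Th, and Pcsk1 never exceeded 4 counts, so a promoter with these letters was found at both ends of the range. A match of letters is a description and not a binding site.

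Sample totals were between 12665725 and 22504999 counts, with the ASO samples highest (21874644 to 22504999). The NTG samples of DiCas7-11 differed from each other more than any other group, by 3.53 to 6.11 times counting noise in chi-square per gene, against 1.66 to 2.70 times in the other 7 groups. The targeted gene, Atxn2, was at 123, 125 and 121 CPM in untransfected cells and at 54.1, 52.9 and 48.9 CPM with the ASO. Its level with NTG was 120, 122 and 125 CPM for RfxCas13d, 123, 112 and 123 CPM for HiFi-RfxCas13d, and 115, 121 and 119 CPM for DiCas7-11. With mATXN2 it was 116, 112 and 113 CPM for RfxCas13d, 98.8, 102 and 104 CPM for HiFi-RfxCas13d, and 101, 106 and 102 CPM for DiCas7-11. The 3 mATXN2 samples were below the 3 NTG samples for each effector, with a difference of -6.87% for RfxCas13d (edgeR, Benjamini-Hochberg adjusted p = 0.178, which did not pass), -14.8% for HiFi-RfxCas13d (adjusted p = 0.00157) and -13.0% for DiCas7-11 (adjusted p = 0.00557), and of -57.8% for the ASO against untransfected cells.

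The line carried markers of its labelled cell type. The 6 markers of noradrenergic neuroblasts that were tested were led by Hand2 at 385 CPM. Of 7 general neuronal markers 5 passed, and the neurofilaments Nefl and Nefm did not. Markers of astrocytes and of microglia summed to at most 0.620 and 0.362 CPM in a sample, with Aqp4 at 0 in all 24 samples.

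Per kb of the longest coding transcript, the granins were the leading members. Chgb (chromogranin B) stood at 350 CPM per kb, above 98.8% of tested genes with a length, followed by Scg2 (secretogranin II) at 139, Vgf (a granin-like peptide precursor) and Scg3 (secretogranin III, which anchors granins to the granule membrane) at 122 each, and Chga (chromogranin A) at 98.4 CPM per kb. The clamp protein gene Cplx1 was at 79.6, the SNARE Snap25 at 71.0 and the vesicle glycoprotein gene Sv2c at 63.9 CPM per kb. At the other end, Rph3a (rabphilin, a Rab3 effector) was at 0.0899, Slc18a1 (the vesicular monoamine transporter of endocrine cells) at 0.303, Pcsk2 (prohormone convertase 2) at 0.443 and Th (tyrosine hydroxylase, the rate-limiting enzyme of catecholamine synthesis) at 0.470 CPM per kb. The median over tested genes with a length was 10.3 CPM per kb, and 25 of the 35 members were above it. Lengths come from another annotation than the authors', so levels are compared between genes only coarsely.

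**Figure D1:**
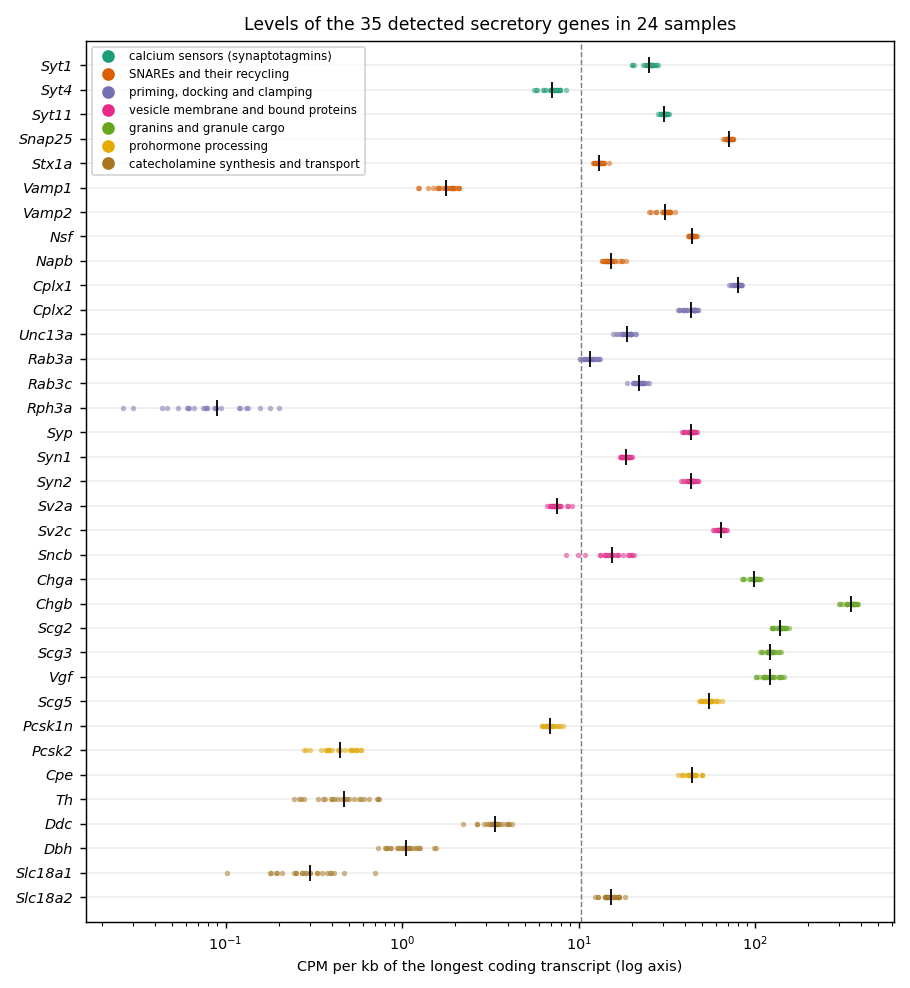
Level of each of the 35 detected members in each of the 24 samples, in CPM per kb of the longest coding transcript on a log axis, with 1 point per sample, a black bar at the mean and colours for the 7 role groups. The dashed line is the median of tested genes (10.3), and Chgb stands highest (350) while Rph3a stands lowest (0.0899).

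Several members of the granule and catecholamine pathways were almost without reads. The convertase Pcsk1 reached at most 4 counts in any sample, and Pcsk2 was at 1.32 to 2.77 CPM, whereas the granin-processing carboxypeptidase Cpe was at 77.8 to 106 CPM and the convertase chaperone Scg5 at 57.9 to 78.8 CPM. Cadps, a priming factor for dense-core granules, reached at most 5 counts, and Rims1, an active-zone scaffold, at most 1 count, with 3 counts over all 24 samples. A floor of 3 counts corresponds to 0.133 CPM in the deepest and 0.237 CPM in the shallowest sample, so none of these 3 genes can be compared between groups. Catecholamine genes were low throughout, with Th at 0.476 to 1.44 CPM, Dbh (dopamine β-hydroxylase) at 1.86 to 3.96 CPM and Ddc (aromatic amino acid decarboxylase) at 4.45 to 8.46 CPM, but the vesicular transporter Slc18a2 was at 47.1 to 69.2 CPM.

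In 4 comparisons the members were set against untransfected cells, for the NTG arm of each effector and for the ASO. They share the same 3 untransfected samples, so a high or low value there moves all of them, and their calls are not independent of each other. A gene was called when its adjusted p in edgeR's quasi-likelihood test was under 0.05 after Benjamini-Hochberg adjustment over all tested genes. With NTG, RfxCas13d called 5 of the 35 members, 2 higher and 3 lower, where 11.3% of all tested genes were called, 5.6% higher and 5.66% lower. HiFi-RfxCas13d called 12, 3 higher and 9 lower, against 20.9% of all genes (10.3% higher, 10.6% lower). DiCas7-11 called 14, 2 higher and 12 lower, against 21.9% (11.1% higher, 10.8% lower). The ASO called 21 members, 3 higher and 18 lower, against 42.7% of all genes, 21% higher and 21.7% lower. The median log2 fold change of the members was -0.013, -0.043, -0.069 and -0.14 in that order, and that of all tested genes was within 0.0062 of 0 in each. Vgf, Scg3 and Cpe were the 3 members called in all 4 comparisons, each lower. The share of all tested genes called in all 4 was not counted, so this number has no background to be read against.

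**Figure D2:**
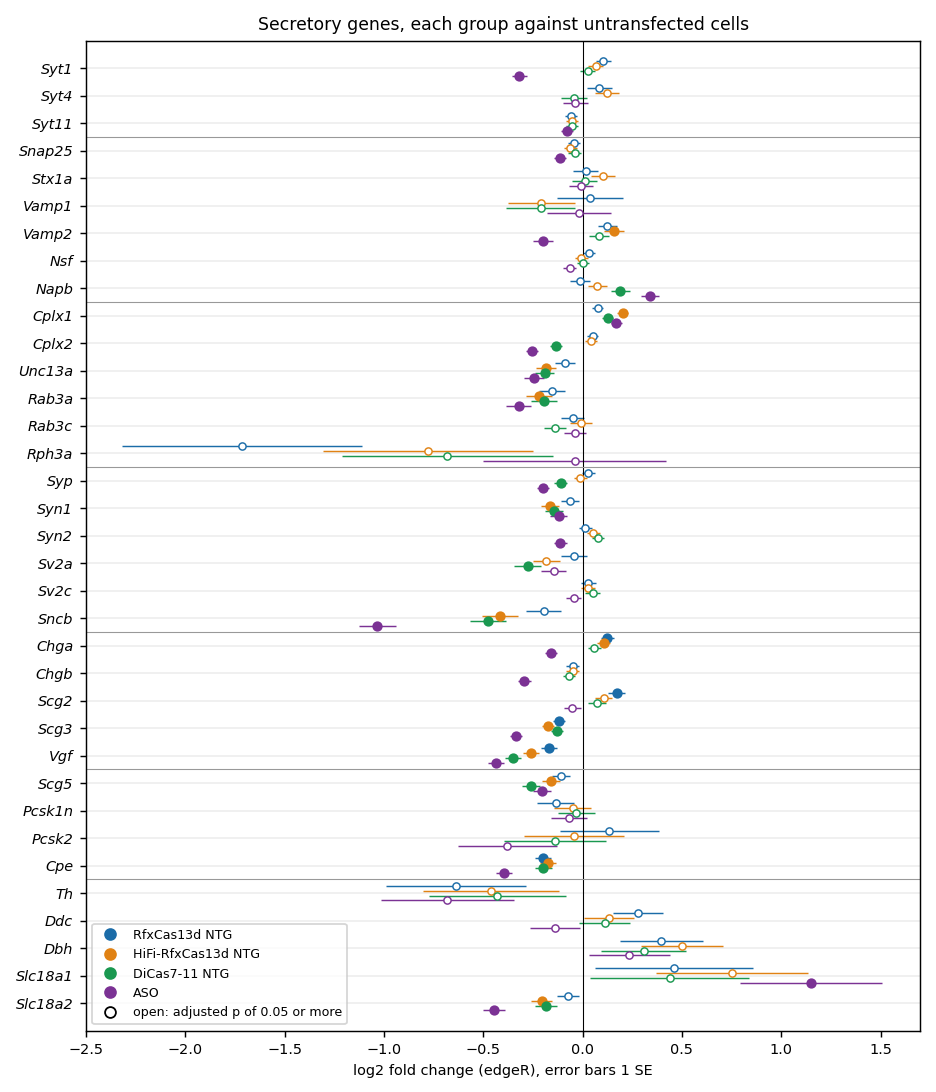
Log2 fold change of each of the 35 members against untransfected cells with 1 SE, for the NTG arm of RfxCas13d (blue), HiFi-RfxCas13d (orange) and DiCas7-11 (green) and for the ASO (purple), with lines between role groups and filled points for adjusted p under 0.05. Sncb with the ASO is the furthest filled point to the left (-1.03) and Slc18a1 with the ASO the furthest to the right (1.15).

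In the ASO samples, the neuronal marker list summed lower than in untransfected cells and the noradrenergic list higher. Marker sums are scaled to library totals only, without the normalization factors used for the members. These factors were 1.023 to 1.025 in ASO samples and 0.992 to 0.997 in untransfected ones, so the sums are not on the members' scale. The 7 listed neuronal markers summed to 905 to 918 CPM with the ASO, 1080 to 1094 CPM in untransfected cells and 928 to 1012 CPM in the transfected samples. On the same scale, the 7 listed noradrenergic markers summed to 887 to 948 CPM with the ASO and 831 to 843 CPM in untransfected cells. Of 5 tested neuronal markers 3 were called with the ASO, Elavl4, Tubb3 and Map2, at log2 fold changes of -0.42, -0.33 and -0.18. Of 6 tested noradrenergic markers, 4 were called higher and 1 lower with the ASO. With NTG, 3, 3 and 1 neuronal markers were called lower for RfxCas13d, HiFi-RfxCas13d and DiCas7-11, and 0 higher. Of all tested genes, 5.66%, 10.6% and 10.8% were called lower there, and 21.7% with the ASO, where 21% were called higher. Depth was also highest in the ASO samples. Of markers of other cell types, the ASO samples held 15.1 to 18.3 CPM of the oligodendrocyte and Schwann list (15.7 to 18.8 CPM untransfected), 8.395 to 8.95 CPM of the endothelial list (7.76 to 10.0 CPM) and 1.03 to 1.38 CPM of the fibroblast list (1.80 to 2.22 CPM). The part of these values in the results was not tested.

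Beyond the comparison with untransfected cells, 10 of the 35 members had all 3 ASO samples below all 21 other samples, where 8.44% of tested genes did. They were Syt1, Cplx2, Syp, Syn2, Sncb, Chga, Chgb, Scg3, Cpe and Slc18a2. Only Napb had all 3 above all 21 others, a pattern shown by 7.36% of tested genes. In the lists of values that follow, the 3 numbers of a group are replicates 1, 2 and 3 in CPM, and effectors are named in the order RfxCas13d, HiFi-RfxCas13d and DiCas7-11.

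Of the calcium sensors, Syt1, the fast sensor of synaptic vesicles, was called lower with the ASO, and Syt11, a synaptotagmin that does not bind calcium, was called lower by a small amount. Syt1 was at 125, 125 and 116 CPM in untransfected cells and 97.1, 96.5 and 99.98 CPM with the ASO. The NTG arms gave 137, 125 and 132, then 132, 123 and 128, then 124, 123 and 126 CPM. The mATXN2 arms gave 115, 119 and 112, then 126, 120 and 119, then 122, 127 and 120 CPM. The 3 ASO samples were the lowest of all 24, with a log2 fold change of -0.32 ± 0.037 (SE) against untransfected cells (edgeR adjusted p = 5.93e-08). Syt11 was at 164, 162 and 155 CPM in untransfected cells and 154, 151 and 150 CPM with the ASO, a log2 fold change of -0.079 ± 0.030 (SE) (edgeR adjusted p = 0.0339). Its NTG arms held 156, 151 and 155, then 156, 155 and 152, then 153, 152 and 159 CPM, and its mATXN2 arms 147, 142 and 146, then 153, 153 and 155, then 160, 146 and 153 CPM. This gene had the highest mean CPM of its role group, and its ASO samples lay inside the range of the transfected ones. DESeq2 did not call it, nor did limma-trend, which here and below was adjusted over 10 comparisons together. The call was also lost without untransfected replicate 1 (adjusted p = 0.155) or 2 (adjusted p = 0.111) or ASO replicate 2 (adjusted p = 0.0853) or 3 (adjusted p = 0.103). Syt4, a dense-core granule synaptotagmin, was at 24.8, 29.8 and 27.2 CPM untransfected and 25.6, 27.2 and 27.1 CPM with the ASO, and these overlapped.

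Among the SNAREs and the proteins that recycle them, Napb (β-SNAP, which brings the ATPase NSF to used SNARE complexes) rose with the ASO, while the plasma membrane SNARE Snap25 and the vesicle SNARE Vamp2 fell. Napb was at 62.6, 61.97 and 63.9 CPM in untransfected cells and 77.9, 82.3 and 78.1 CPM with the ASO. With NTG it was at 59.7, 61.7 and 64.9, then 63.8, 67.9 and 66.1, then 71.4, 74.99 and 68.1 CPM, and with mATXN2 at 59.9, 66.6 and 65.1, then 63.3, 64.6 and 67.8, then 71.1, 68.3 and 64.2 CPM. The ASO samples stood above the other 21, at a log2 fold change of 0.34 ± 0.046 (SE) (edgeR adjusted p = 5.65e-07), and the NTG samples of DiCas7-11 stood above the untransfected ones, at 0.19 ± 0.048 (SE) (adjusted p = 0.00475).

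Vamp2 moved in opposite directions with a transfected arm and with the ASO, both against the same untransfected samples at 69.7, 67.1 and 60.3 CPM. The ASO gave 60.6, 55.3 and 56.4 CPM, a log2 fold change of -0.20 ± 0.049 (SE) (edgeR adjusted p = 0.00157), though the highest of these samples overlapped the lowest untransfected one. HiFi-RfxCas13d with NTG gave 77.7, 71.00 and 71.98 CPM, all above the untransfected samples, at 0.16 ± 0.049 (SE) (adjusted p = 0.0225), and this call was lost without replicate 1 of that arm (adjusted p = 0.135) or without untransfected replicate 3 (adjusted p = 0.132). Its other arms held 72.5, 72.3 and 70.9 CPM (RfxCas13d, NTG), 72.8, 69.6 and 67.3 CPM (DiCas7-11, NTG), and with mATXN2 67.5, 67.4 and 66.2, then 73.02, 65.1 and 67.4, then 67.9, 67.8 and 69.2 CPM. Snap25 was at 158, 158 and 157 CPM untransfected and 150, 143 and 144 CPM with the ASO, a log2 fold change of -0.12 ± 0.030 (SE) (edgeR adjusted p = 0.00252). Across the transfected arms Snap25 held 155, 148 and 156, then 150, 151 and 152, then 147, 160 and 153 CPM with NTG and 147, 149 and 150, then 146, 150 and 148, then 147, 140 and 147 CPM with mATXN2, a range that covers the ASO samples. Nsf, the ATPase and the member of this role group with the highest CPM, was called in no comparison. It was at 163, 171 and 167 CPM untransfected, 158, 162 and 159 CPM with the ASO, 176, 162 and 174, then 169, 165 and 165, then 166, 173 and 162 CPM with NTG and 159, 162 and 167, then 165, 168 and 168, then 159, 162 and 165 CPM with mATXN2. Stx1a, the partner of Snap25 in the plasma membrane (26.1 to 32.3 CPM over the 24 samples), and Vamp1, another vesicle SNARE (3.69 to 6.37 CPM), were not called either.

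In the priming, docking and clamping group the 2 complexins, which clamp the SNARE complex before calcium arrives, went apart. Cplx1 was at 155, 163 and 159 CPM in untransfected cells, the lowest of the 8 groups, and at 176, 178 and 183 CPM with the ASO. Its NTG arms gave 165, 171 and 167, then 182, 185 and 182, then 169, 178 and 174 CPM, and its mATXN2 arms 176, 179 and 178, then 175, 172 and 178, then 175, 177 and 182 CPM. Every sample of the other 7 groups was above the 3 untransfected samples. Against these, Cplx1 rose with the ASO by 0.17 ± 0.027 (SE) on the log2 scale (edgeR adjusted p = 8.81e-06), with HiFi-RfxCas13d and NTG by 0.20 ± 0.028 (SE) (adjusted p = 5.75e-06) and with DiCas7-11 and NTG by 0.13 ± 0.028 (SE) (adjusted p = 0.00146).

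Cplx2, the member of this role group with the highest CPM, was at 226, 215 and 216 CPM untransfected and 184, 181 and 185 CPM with the ASO. It held 226, 226 and 228, then 233, 220 and 223, then 205, 201 and 193 CPM with NTG and 222, 226 and 222, then 234, 221 and 224, then 195, 202 and 193 CPM with mATXN2. The ASO samples were the lowest of all, and the 6 samples of DiCas7-11 came next, below all other samples. The log2 fold change was -0.25 ± 0.029 (SE) with the ASO (edgeR adjusted p = 3.41e-08) and -0.13 ± 0.030 (SE) for DiCas7-11 with NTG (adjusted p = 0.00149).

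Unc13a (Munc13-1, the factor that opens syntaxin during priming) and Rab3a (a GTPase of the vesicle surface) were called lower than in untransfected cells with the ASO and in 2 of the 3 NTG arms. In the RfxCas13d NTG arm their means were also lower, without a call, at 193.5 against 206.2 CPM for Unc13a and 18.2 against 20.3 CPM for Rab3a. Unc13a went from 214, 201 and 204 CPM untransfected to 182, 167 and 173 CPM with the ASO, and its NTG arms were at 184, 194 and 203, then 185, 181 and 179, then 192, 161 and 190 CPM. With mATXN2 it was at 218, 203 and 199, then 204, 189 and 194, then 204, 190 and 196 CPM. Its calls were -0.24 ± 0.048 (SE) for the ASO (edgeR adjusted p = 0.000145), -0.18 ± 0.049 (SE) for HiFi-RfxCas13d (adjusted p = 0.00788) and -0.19 ± 0.050 (SE) for DiCas7-11 (adjusted p = 0.00568). The HiFi-RfxCas13d call was lost without untransfected replicate 1 (adjusted p = 0.0531), and the DiCas7-11 call without replicate 2 of that arm (adjusted p = 0.0894), which at 161 CPM was the lowest of all samples. Rab3a, at 20.1, 20.5 and 20.2 CPM untransfected, was at 16.8, 15.9 and 15.9 CPM with the ASO, 18.6, 18.1 and 17.9, then 17.4, 16.9 and 17.8, then 18.7, 16.5 and 18.03 CPM with NTG, and 19.2, 18.1 and 16.9, then 17.9, 17.5 and 19.00, then 18.8, 18.1 and 19.8 CPM with mATXN2. The 3 untransfected samples were above the other 21. Rab3a was called in the ASO (log2 fold change -0.32 ± 0.063 (SE), edgeR adjusted p = 0.000121), HiFi-RfxCas13d (-0.22 ± 0.065 (SE), adjusted p = 0.0145) and DiCas7-11 comparisons (-0.19 ± 0.065 (SE), adjusted p = 0.0321), but DESeq2 made neither of the 2 effector calls. The HiFi-RfxCas13d call was lost without replicate 2 of that arm (adjusted p = 0.0599) or untransfected replicate 2 (adjusted p = 0.0557), and the DiCas7-11 call was kept only without replicate 1 of that arm, with adjusted p of 0.0532 to 0.209 without each of the other 5 libraries. Rab3c, another Rab3 GTPase, ranged from 158 to 211 CPM and was called nowhere, and Rph3a never exceeded 0.839 CPM.

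Of the vesicle membrane and vesicle-bound proteins, Sncb (β-synuclein, a presynaptic relative of α-synuclein) had the largest fall of the members called. It was at 27.8, 27.03 and 26.2 CPM in untransfected cells and 14.7, 13.4 and 11.5 CPM with the ASO. The NTG arms gave 20.6, 24.2 and 25.7, then 20.7, 21.2 and 18.9, then 19.7, 17.8 and 20.9 CPM, and the mATXN2 arms 22.5, 22.6 and 26.6, then 19.04, 17.9 and 22.04, then 20.5, 19.4 and 19.8 CPM. The ASO samples were below every other sample. The log2 fold change was -1.03 ± 0.091 (SE) with the ASO, a change of -51.1% (edgeR adjusted p = 2.89e-10), -0.41 ± 0.090 (SE) with HiFi-RfxCas13d and NTG (adjusted p = 0.00126) and -0.48 ± 0.091 (SE) with DiCas7-11 and NTG (adjusted p = 0.000342). With RfxCas13d and NTG it was -0.20 ± 0.088 (SE) and not called (adjusted p = 0.159). The 3 calls were kept without each library in turn.

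Other proteins of this role group fell by less. Syp (synaptophysin, a major vesicle membrane protein) was at 119, 114 and 116 CPM untransfected and 102, 102 and 99.98 CPM with the ASO, with 121, 121 and 115, then 115, 114 and 118, then 110, 110 and 104 CPM under NTG and 114, 114 and 110, then 110, 115 and 114, then 109, 110 and 107 CPM under mATXN2. Its ASO samples were below all others (-0.20 ± 0.031 (SE), edgeR adjusted p = 6.34e-06), and DiCas7-11 with NTG was called too (-0.11 ± 0.032 (SE), adjusted p = 0.0144), though not without its replicate 3 (adjusted p = 0.108) or untransfected replicate 1 (adjusted p = 0.0780). Syn1 and Syn2 encode synapsins, which hold vesicles in the reserve pool. For Syn1 the untransfected samples held 64.99, 62.99 and 65.7 CPM, the ASO samples 62.1, 59.2 and 56.6 CPM, the NTG arms 61.5, 62.8 and 60.8, then 59.4, 56.2 and 57.3, then 60.7, 57.7 and 56.8 CPM, and the mATXN2 arms 64.04, 57.7 and 60.8, then 60.2, 57.1 and 59.8, then 62.7, 58.4 and 61.6 CPM. Its calls with the ASO (-0.12 ± 0.043 (SE), edgeR adjusted p = 0.0243) and with DiCas7-11 (-0.15 ± 0.045 (SE), adjusted p = 0.0207) were each lost without any of 4 libraries, untransfected replicates 1 and 3 and replicates 2 and 3 of the treated arm, with adjusted p of 0.0552 to 0.144 for the ASO and 0.0640 to 0.0864 for DiCas7-11. The ASO call was also lost with DESeq2 (adjusted p = 0.0614), limma-trend adjusted over 10 comparisons (adjusted p = 0.0541) and no filter on low counts (adjusted p = 0.0685). Its call with HiFi-RfxCas13d (-0.16 ± 0.045 (SE), adjusted p = 0.00944) was kept without each. For Syn2 the values were 160, 168 and 159 CPM untransfected and 146, 150 and 155 CPM with the ASO, against 167, 164 and 161, then 167, 169 and 170, then 170, 171 and 173 CPM with NTG and 160, 171 and 176, then 172, 170 and 171, then 178, 183 and 184 CPM with mATXN2. The ASO samples were again lowest of all (-0.11 ± 0.031 (SE), edgeR adjusted p = 0.00441), while the 3 NTG arms overlapped untransfected cells or, for DiCas7-11, lay above them without a call, and the DiCas7-11 samples with mATXN2 were the highest of all. The ASO call was lost without untransfected replicate 2 (adjusted p = 0.0675).

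The SV2 proteins are vesicle glycoproteins that regulate release. Sv2a was at 39.8, 31.9 and 37.4 CPM untransfected, 33.3, 31.6 and 33.4 CPM with the ASO, 37.7, 33.5 and 34.4, then 33.1, 31.98 and 30.7, then 31.5, 28.6 and 29.9 CPM with NTG and 32.8, 31.9 and 30.5, then 32.1, 30.4 and 33.98, then 32.6, 30.8 and 29.7 CPM with mATXN2. It was called with DiCas7-11 and NTG (-0.28 ± 0.068 (SE), edgeR adjusted p = 0.00374), a call lost without untransfected replicate 1 (adjusted p = 0.0547). Sv2c, the member of the group with the highest CPM, was called in none of the 4 comparisons. Its values were 523, 598 and 567 CPM untransfected, 534, 544 and 559 CPM with the ASO, 561, 580 and 580, then 568, 577 and 576, then 557, 562 and 631 CPM with NTG and 598, 609 and 608, then 625, 598 and 610, then 602, 594 and 598 CPM with mATXN2.

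The granins and granule cargo fell with the ASO in 4 of 5 genes, with a median log2 fold change of -0.29 over the 5, while in the NTG arms the calls against untransfected cells went in both directions. Vgf was at 396, 416 and 405 CPM in untransfected cells and 313, 299 and 288 CPM with the ASO. With NTG it was at 360, 360 and 362, then 350, 336 and 332, then 345, 289 and 323 CPM, and with mATXN2 at 385, 385 and 393, then 356, 321 and 343, then 320, 320 and 327 CPM. Untransfected samples were above all 21 others. The fall was -0.44 ± 0.041 (SE) with the ASO (edgeR adjusted p = 9.76e-10), -0.17 ± 0.041 (SE) with RfxCas13d (adjusted p = 0.00662), -0.26 ± 0.041 (SE) with HiFi-RfxCas13d (adjusted p = 3.83e-05) and -0.35 ± 0.042 (SE) with DiCas7-11 (adjusted p = 5.64e-07), and without untransfected replicate 2 the RfxCas13d call was lost (adjusted p = 0.0503).

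Scg3 was at 325, 321 and 333 CPM untransfected and 255, 261 and 260 CPM with the ASO, 307, 299 and 295, then 291, 281 and 295, then 281, 311 and 303 CPM with NTG, and 290, 291 and 284, then 296, 298 and 280, then 280, 283 and 282 CPM with mATXN2. Untransfected samples stood highest and ASO samples lowest, with no overlap of either with the 18 transfected samples. The RfxCas13d call was lost without replicate 3 of that arm (adjusted p = 0.0557) or untransfected replicate 3 (adjusted p = 0.0703). Its log2 fold changes were -0.34 ± 0.030 (SE) with the ASO (edgeR adjusted p = 3.84e-10), -0.12 ± 0.030 (SE) for RfxCas13d (adjusted p = 0.00981), -0.17 ± 0.030 (SE) for HiFi-RfxCas13d (adjusted p = 0.000120) and -0.13 ± 0.030 (SE) for DiCas7-11 (adjusted p = 0.00287), and the DiCas7-11 call was lost with only the samples compared (adjusted p = 0.0635). Chgb, the most abundant member, was at 996, 1032 and 1046 CPM untransfected and 821, 835 and 853 CPM with the ASO, against 992, 962 and 1014, then 980, 986 and 1002, then 910, 1038 and 980 CPM with NTG and 953, 1001 and 951, then 967, 1021 and 957, then 897, 910 and 910 CPM with mATXN2. The ASO samples were below all others, at -0.29 ± 0.032 (SE) (edgeR adjusted p = 2.15e-08), and no NTG arm was called.

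Chga and Scg2 were the granins called higher with NTG than in untransfected cells. Chga was at 187, 178 and 175 CPM untransfected, 163, 161 and 159 CPM with the ASO, 205, 188 and 196, then 197, 189 and 195, then 182, 193 and 186 CPM with NTG, and 188, 192 and 190, then 198, 187 and 187, then 180, 184 and 186 CPM with mATXN2. It fell with the ASO (-0.16 ± 0.032 (SE), edgeR adjusted p = 0.000175) and rose with RfxCas13d (0.13 ± 0.032 (SE), adjusted p = 0.0107) and HiFi-RfxCas13d (0.11 ± 0.032 (SE), adjusted p = 0.0181). The HiFi-RfxCas13d call was lost without any of 4 libraries, with adjusted p of 0.0593 to 0.0754, and the RfxCas13d call without replicate 1 of that arm (adjusted p = 0.0870). Scg2 was at 368, 322 and 315 CPM untransfected, 339, 314 and 315 CPM with the ASO, 394, 366 and 371, then 376, 346 and 359, then 351, 354 and 351 CPM with NTG, and 348, 337 and 320, then 375, 354 and 358, then 365, 355 and 347 CPM with mATXN2. Of the 4 comparisons it was called in that of RfxCas13d (0.17 ± 0.044 (SE), edgeR adjusted p = 0.0100), and the call was lost without replicate 1 of that arm (adjusted p = 0.0743) or without untransfected replicate 2 (adjusted p = 0.0589) or 3 (adjusted p = 0.0631). Untransfected replicate 1, at 368 CPM, was above the lowest NTG sample of RfxCas13d, at 366 CPM.

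**Figure D3:**
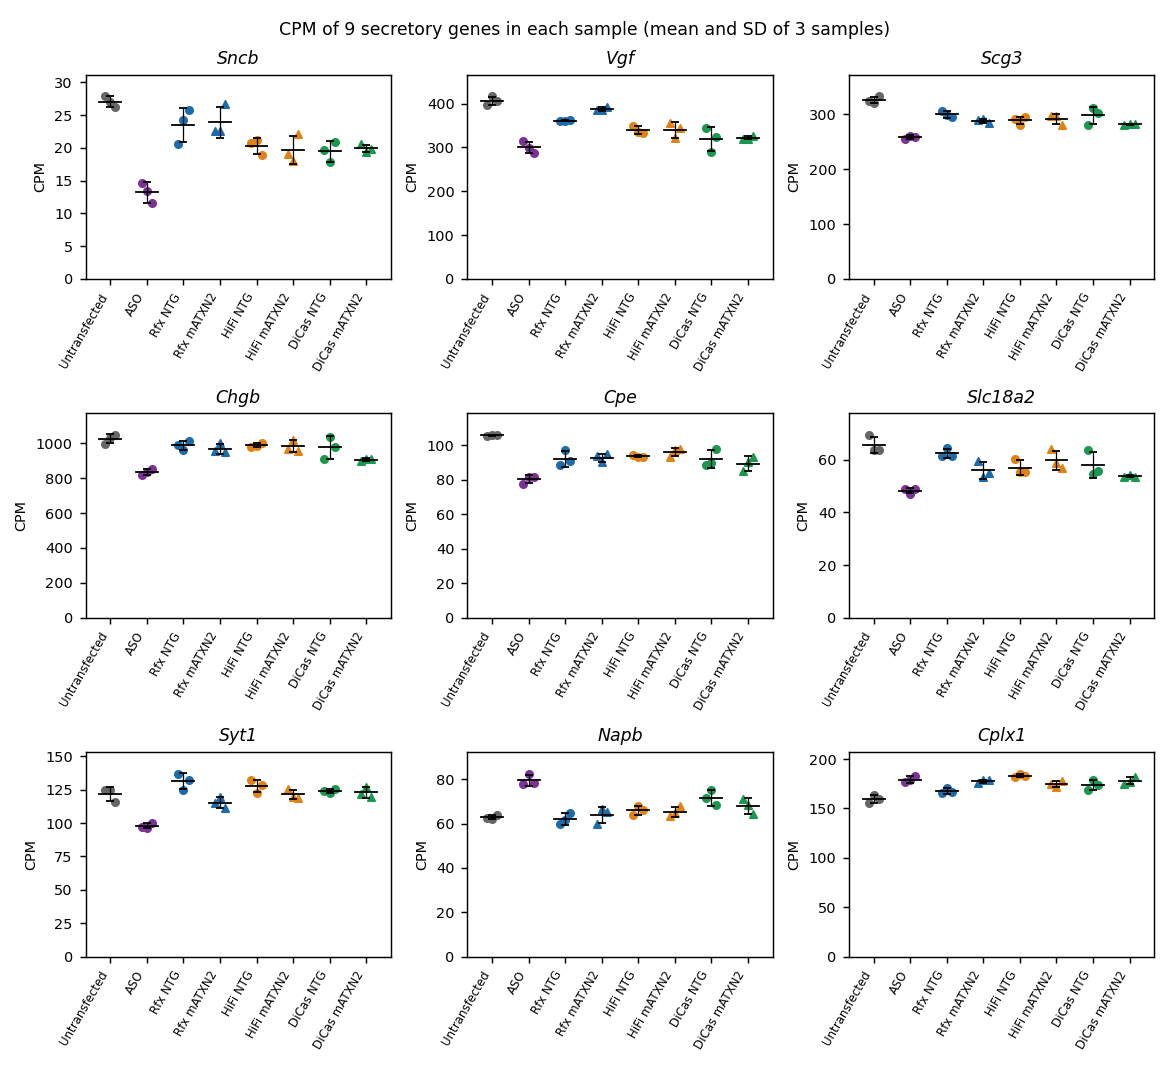
CPM of Sncb, Vgf, Scg3, Chgb, Cpe, Slc18a2, Syt1, Napb and Cplx1 in each of the 24 samples, from 0, with circles for untransfected, ASO and NTG samples, triangles for mATXN2 samples, and bars at the mean with the SD of 3 samples. ASO samples are lowest of all for Sncb, Scg3, Chgb, Cpe, Slc18a2 and Syt1, highest for Napb, and the untransfected samples are lowest for Cplx1.

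Of the prohormone-processing genes, Cpe (carboxypeptidase E) and Scg5 (7B2, the chaperone of prohormone convertase 2) were lower than in untransfected cells. Cpe was at 106, 106 and 106 CPM untransfected, the closest triplicate of any group for this gene, and at 77.8, 81.6 and 81.7 CPM with the ASO. The NTG arms held 88.4, 97.1 and 90.6, then 94.6, 93.3 and 93.3, then 88.6, 89.9 and 97.9 CPM, and the mATXN2 arms 93.5, 90.3 and 94.7, then 93.3, 97.2 and 97.6, then 84.8, 90.02 and 93.3 CPM. As with Scg3, untransfected samples were highest, ASO samples lowest and the transfected ones between, without overlap. The log2 fold change was -0.40 ± 0.040 (SE) with the ASO (edgeR adjusted p = 3.47e-09), -0.20 ± 0.041 (SE) for RfxCas13d (adjusted p = 0.00144), -0.17 ± 0.040 (SE) for HiFi-RfxCas13d (adjusted p = 0.00244) and -0.20 ± 0.041 (SE) for DiCas7-11 (adjusted p = 0.000761), and each of these calls was kept without each library in turn.

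Scg5 was at 78.8, 72.8 and 72.5 CPM untransfected, 68.1, 62.1 and 64.3 CPM with the ASO, 74.2, 68.01 and 66.2, then 66.5, 67.6 and 66.7, then 65.8, 59.8 and 61.99 CPM with NTG, and 68.7, 68.2 and 68.3, then 66.1, 68.2 and 63.9, then 59.98, 57.9 and 59.9 CPM with mATXN2. Its 4 lowest samples were of DiCas7-11, whereas those of Cpe were 3 ASO samples and 1 of DiCas7-11. It was called with the ASO (-0.21 ± 0.044 (SE), edgeR adjusted p = 0.000384), HiFi-RfxCas13d (-0.16 ± 0.046 (SE), adjusted p = 0.0123) and DiCas7-11 (-0.26 ± 0.046 (SE), adjusted p = 0.000146), and the HiFi-RfxCas13d call was lost without untransfected replicate 1 (adjusted p = 0.105). Pcsk1n (proSAAS, an inhibitor of the other convertase) ranged from 13.6 to 17.9 CPM and was not called, nor was Pcsk2.

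Among catecholamine genes the 2 vesicular monoamine transporters went in opposite directions with the ASO. Slc18a2 (VMAT2) was at 69.2, 63.8 and 63.7 CPM untransfected and 48.7, 47.1 and 48.8 CPM with the ASO. Its NTG arms gave 61.2, 64.5 and 61.4, then 60.1, 55.5 and 55.2, then 63.7, 54.6 and 55.7 CPM, and its mATXN2 arms 59.6, 53.4 and 54.7, then 63.9, 58.7 and 56.7, then 53.5, 54.3 and 53.4 CPM. The ASO samples were below all others (-0.45 ± 0.054 (SE), edgeR adjusted p = 8.75e-08). HiFi-RfxCas13d was also called (-0.21 ± 0.055 (SE), adjusted p = 0.00695), as was DiCas7-11 (-0.18 ± 0.055 (SE), adjusted p = 0.0158), whose replicate 1 overlapped untransfected cells. Without untransfected replicate 1 both effector calls were lost (adjusted p = 0.0599 and 0.108), and that of DiCas7-11 also without its replicate 2 (adjusted p = 0.115) or 3 (adjusted p = 0.0774).

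Slc18a1 (VMAT1) was near the detection limit, at 1.03, 0.599 and 0.319 CPM untransfected and 1.17, 1.09 and 2.19 CPM with the ASO, a log2 fold change of 1.15 ± 0.36 (SE) (edgeR adjusted p = 0.0104). ASO replicate 3 was the highest of all 24 samples, and without it the value was 0.76 (adjusted p = 0.115), while without untransfected replicate 3 it was 0.87 (adjusted p = 0.0684), so the call rests on single libraries. With NTG it was at 0.761, 0.935 and 1.03, then 0.841, 1.23 and 1.28, then 0.877, 0.893 and 0.933 CPM, and with mATXN2 at 0.780, 0.840 and 0.566, then 0.780, 0.554 and 0.610, then 0.652, 1.21 and 1.45 CPM. Th, Ddc and Dbh were not called against untransfected cells.

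Lists of other genes of the same pathways were counted in the ASO comparison, in which 21% of all tested genes were called higher and 21.7% lower. Of 26 tested SNAREs and their regulators, 4 were called higher and 8 lower with the ASO, with a median log2 fold change of -0.085, led by Unc13d (a priming factor of secretory cells, 0.88), Vamp8 (an endosomal SNARE, -0.48) and Stx4a (a plasma membrane syntaxin, -0.36). Of 13 other synaptotagmins 3 were higher and 2 lower, among them Syt5 (0.31), Esyt1 (-0.26) and Sytl1, which went from a mean of 0.0613 CPM, under the 3-count floor, to 0.674 CPM. Of 26 vesicle and endocytosis genes 5 were higher and 8 lower, led by Atp6v1g2 (a subunit of the vesicular proton pump, 1.60), Syngr1 (-0.27) and Svop (-0.26). Of 18 active-zone genes 3 were higher and 6 lower, led by Cacna2d1 (a calcium channel subunit, -0.62), Ppfia2 (a liprin scaffold, 0.48) and Ppfia3 (-0.34). Of 12 peptide-processing and neuropeptide genes 5 were higher and 3 lower, led by Cpm (a carboxypeptidase, 0.50), Nucb2 (-0.46) and Pam (the peptide-amidating enzyme, -0.41). Of 8 transmitter synthesis and transport genes none were higher and 2 were lower, Ache (acetylcholinesterase, -1.01) and Gch1 (the first enzyme of tetrahydrobiopterin synthesis, -0.13). The median log2 fold changes of these lists ran from -0.085 for the SNAREs and their regulators to 0.14 for the peptide-processing genes, against -0.14 for the 35 members. Of 14 sympathoadrenal and REST regulators 6 were higher and 3 lower, led by Gata3 (0.70), Crem (-0.65) and Isl1 (0.48), transcription factors of the sympathetic lineage or of the cAMP response.

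Within each of the 3 effectors, the mATXN2 samples were set against their own NTG samples. With RfxCas13d, 2 of the 35 members were called, Syt1 and Scg2, both lower, where 1.39% of all tested genes were called, and 10 members had an unadjusted p under 0.05, as did 13.8% of all tested genes. With HiFi-RfxCas13d none were called, where 0.295% of all genes were, and 5 members had an unadjusted p under 0.05, as did 7.45% of all genes. DESeq2 and limma-trend called none there either. With DiCas7-11 none were called, where 0.942% of all genes were, and 6 members had an unadjusted p under 0.05, as did 14.04% of all genes. There DESeq2 called 1 (Chgb), and limma-trend adjusted over 10 comparisons called 2 (Syt4 and Chgb), each lower. Over all 13901 tested genes they called 286 and 636.

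Syt1 in RfxCas13d cells was at 137, 125 and 132 CPM with NTG and 115, 119 and 112 CPM with mATXN2, with no overlap between the groups. This was a log2 fold change of -0.18 ± 0.038 (SE) (edgeR adjusted p = 0.0113), and the call was lost without NTG replicate 1 (adjusted p = 0.0935) or mATXN2 replicate 3 (adjusted p = 0.0830). The mATXN2 samples also overlapped the untransfected ones at 125, 125 and 116 CPM. Scg2 was at 394, 366 and 371 CPM with NTG and 348, 337 and 320 CPM with mATXN2, also without overlap, at -0.17 ± 0.043 (SE) (edgeR adjusted p = 0.0410). The same NTG samples gave the higher call against untransfected cells, whose mean of 334.6 CPM was close to the mATXN2 mean of 334.8 CPM. This call was lost without any of 5 of the 6 libraries, with adjusted p of 0.0534 to 0.233, and was kept without mATXN2 replicate 1. The number of members called fell to 0 without RfxCas13d NTG replicate 1 or mATXN2 replicate 3, and to 1 without NTG replicate 2, NTG replicate 3 or mATXN2 replicate 2. Over all tested genes the count also fell, from 193 to 49, 49, 106, 143 and 74 in the same order.

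In the other effectors the members above 5 CPM with the largest values are given as values only. With HiFi-RfxCas13d these were Unc13a at 0.11 ± 0.049 (SE) (edgeR adjusted p = 0.635) and Vamp2 at -0.10 ± 0.048 (SE) (adjusted p = 0.644). With DiCas7-11 they were Syt4 at -0.25 ± 0.065 (SE) (edgeR adjusted p = 0.0557) and Vamp1 at 0.17 ± 0.17 (SE) (adjusted p = 0.728). Syt4 was at 26.8, 28.1 and 24.6 CPM with NTG and 21.9, 22.7 and 22.3 CPM with mATXN2, without overlap, and the 3 mATXN2 samples were the lowest of all 24. Without DiCas7-11 NTG replicate 1 the number of members called in DiCas7-11 rose to 4, Syt4, Snap25, Chgb and Scg3, all lower, and without NTG replicate 3 to 1, Syt4. Over all 13901 tested genes the count also rose, from 131 to 621 and to 190 in the same order.

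**Figure D4:**
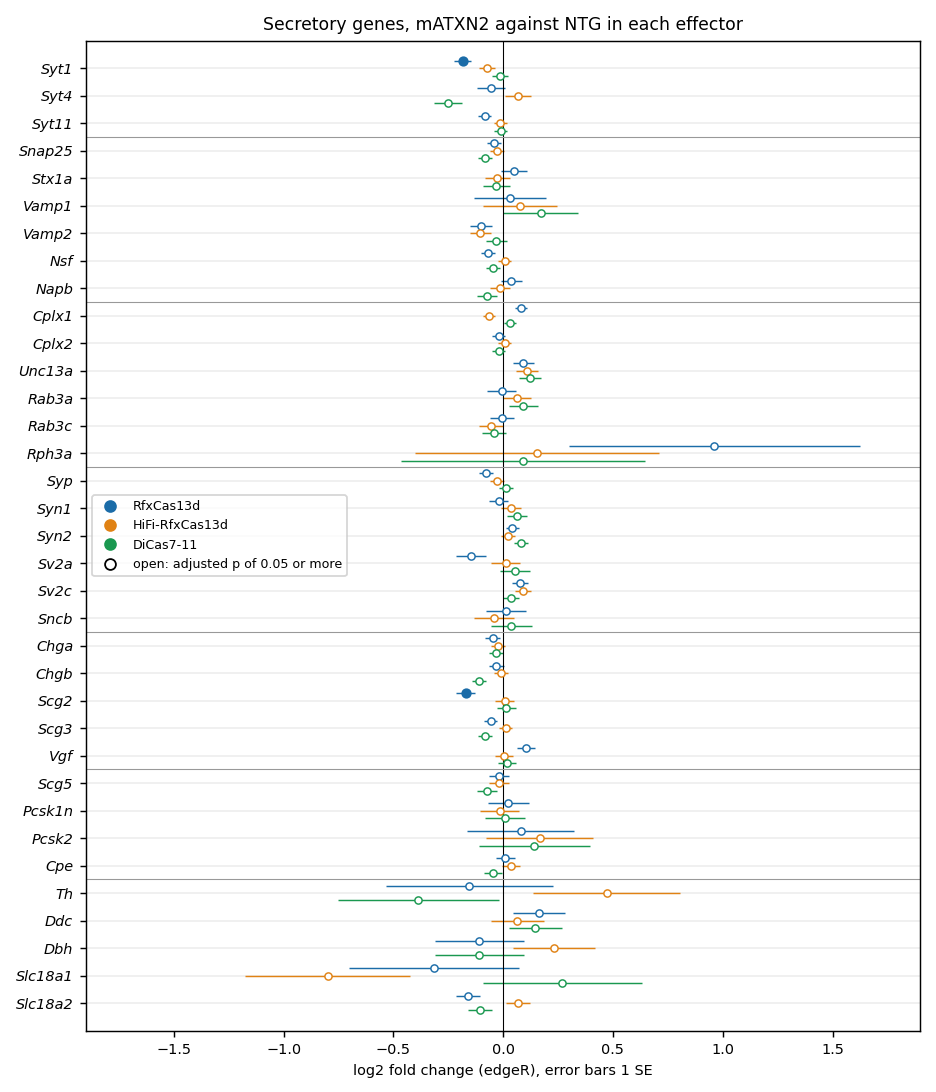
Log2 fold change of each of the 35 members between mATXN2 and NTG samples with 1 SE, for RfxCas13d (blue), HiFi-RfxCas13d (orange) and DiCas7-11 (green), with lines between role groups and filled points for adjusted p under 0.05. The 2 filled points are Syt1 (-0.18) and Scg2 (-0.17), both with RfxCas13d.

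Averaged over the 3 effectors, mATXN2 against NTG called 2 members, where 5.19% of all tested genes were called. Syt1 was lower, at -0.090 ± 0.022 (SE) (edgeR adjusted p = 0.0104), a call kept without each of the 18 libraries, and Unc13a was higher, at 0.11 ± 0.028 (SE) (adjusted p = 0.0210). The Unc13a call was lost without any of 4 libraries, RfxCas13d NTG replicate 1, RfxCas13d mATXN2 replicate 1, HiFi-RfxCas13d mATXN2 replicate 1 and DiCas7-11 mATXN2 replicate 1, with adjusted p of 0.0532 to 0.0590. The number of members called was 5 without DiCas7-11 NTG replicate 1, adding Snap25, Chgb and Scg3, and 1 without RfxCas13d NTG replicate 1 or DiCas7-11 mATXN2 replicate 1. Over all tested genes the count was 722 with all libraries, and 1066, 592 and 625 in the same order. For Unc13a, the comparisons of NTG with untransfected cells, where it was called lower in 2 of 3, share the NTG samples with this one.

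Whether the response to mATXN2 differed between effectors was tested with an F test over the 3 effectors. None of the 35 members were called, and 0% of all tested genes were. At an unadjusted p under 0.05 there were 5 members, Syt1, Syt4, Cplx1, Scg2 and Slc18a2, and 7.34% of all tested genes, and DESeq2 called none of the members. Cplx1, for example, was above NTG in all 3 RfxCas13d samples with mATXN2 (log2 fold change 0.081 ± 0.028 (SE)) and below it in all 3 HiFi-RfxCas13d samples (-0.066 ± 0.027 (SE)), but the edgeR adjusted p of the difference was 0.532. Scg2, called with RfxCas13d, had log2 fold changes of 0.0062 ± 0.043 (SE) with HiFi-RfxCas13d and 0.015 ± 0.043 (SE) with DiCas7-11, and its adjusted p of the difference was 0.560.

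Across all 8 groups at once, 25 of the 35 members differed, where 50.3% of all tested genes did. Among members at 5 CPM or more, the widest spread between group means was that of Sncb, 2.05-fold between untransfected cells (27.02 CPM) and the ASO (13.2 CPM), followed by Ddc (1.49-fold, from 8.13 CPM in RfxCas13d mATXN2 to 5.44 CPM with the ASO) and Syt4 (1.40-fold, from 31.2 CPM in HiFi-RfxCas13d mATXN2 to 22.3 CPM in DiCas7-11 mATXN2). Snap25 had one of the narrowest, 1.09-fold, and was still called (edgeR adjusted p = 0.0143). The ASO group had the lowest mean for 19 of the 35 members and untransfected cells the highest for 15. Stx1a, Vamp1, Nsf, Rab3c, Rph3a, Syn1, Pcsk1n, Pcsk2, Th and Dbh were the 10 members not called. Slc18a1, though called (edgeR adjusted p = 0.0488), lost its call without any of 19 of the 24 libraries.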

How the data were processed

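RNA-seq of 24 samples was used. Per the labels and methods, mRNA libraries were made with a stranded kit. The authors quantified reads with Salmon (version 1.5.2 in the submitters' processing notes, with R 4.2.2) on GRCm39 and summarised them to genes with tximport (lengthScaledTPM), and the deposited values are expected counts without scaling for depth. An inclusion flag for 12874 genes, also deposited, was not used. Expected counts were rounded to whole numbers. The lower limit was 0.5 CPM in 3 or more samples, and 1 model of 8 groups over all 24 samples was fitted with edgeR 4.0.16 in R 4.3.3 (TMM normalization, quasi-likelihood test). P-values were Benjamini-Hochberg adjusted within each comparison over all genes tested, at a threshold of 0.05. Those of limma-trend were instead adjusted over 10 comparisons together. SEs come from the log2 fold change and the F statistic. CPM values are normalized by TMM, except in the filter, the floor of 3 counts and the levels and sums of cell type markers. Those are scaled to the library total only, and the sums run over all listed markers. The members and lists were chosen with earlier results of these data known. In each comparison of 2 arms, members past the threshold were named, and where more than 8 passed, the 4 largest in each direction. Where none passed, the 2 largest at 5 CPM or more were named. Every member called in a comparison, and the one with the highest CPM in each role group, is given by sample. Alternatives were DESeq2 size factors, no filter, DESeq2 1.42.0, limma-trend (limma 3.58.1) adjusted over 10 comparisons together, only the samples compared, a replicate block, and each library left out. The procedure was tested on simulated data. Lengths are those of the longest coding transcript in GENCODE M21 (GRCm38), found for 12126 of the 13901 genes (87.2%), and promoter sequences are from RefSeq. Depth and replicate spread limit the precision, and P-values measure the spread between these samples. The result of 1 marker gene is not reported here.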

Additional observations from a re-analysis of the deposited data

How the results depend on the processing

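Alternative values were tallied only for genes picked by the naming rule in the processing section, not for every called member. Of these values, 379 kept their direction and their side of the threshold, 32 lost the call, 5 gained it and 0 turned direction. The tally leaves out Syt11 and Syn1 with the ASO, and Rab3a, Syn1, Syp and Slc18a2 with DiCas7-11 and NTG. Each of these calls was lost under several alternatives. It also leaves out calls kept without each library, such as Syt1 and Cplx2 with the ASO. For RfxCas13d mATXN2 against NTG, 2 members were called, 4 with limma-trend adjusted over 10 comparisons, 4 with only the samples compared, and 0 to 2 without single libraries. For DiCas7-11 the count of 0 became 3 with no filter on low counts, 1 with DESeq2, 2 with limma-trend adjusted over 10 comparisons and 0 to 4 without single libraries. Over the 3 effectors, 2 became 4 with no filter and 1 to 5 without single libraries. The difference between effectors went from 0 to 1 (Scg2) with no filter. HiFi-RfxCas13d mATXN2 against NTG stayed at 0 under each alternative. For NTG against untransfected cells, DiCas7-11 went from 14 to 9 with only the samples compared (without Rab3a, Syp, Syn1, Scg3 and Slc18a2) and to 10 to 14 without single libraries, and RfxCas13d from 5 to 3 (without untransfected replicate 3) to 6. HiFi-RfxCas13d NTG gave 10 to 12 and the ASO 19 to 21 without single libraries. The cause of these shifts was not tested, though leaving samples out also lowers the residual degrees of freedom. With limma-trend, the test and the adjustment changed together.

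For same-numbered samples of different groups, the correlation of deviations from the group means had a median of 0.024 in 84 pairs (-0.18 to 0.24). Of these pairs, 21 were over 0.1. Pairs with different numbers were not computed, so these values cannot tell whether a number marks a shared batch. With the replicate number as a block, mATXN2 against NTG called 2 members with RfxCas13d, 0 with HiFi-RfxCas13d, 2 with DiCas7-11 (Syt4 and Chgb) and 4 over the 3 effectors (adding Vamp2 and Sv2c), the difference between effectors called 0, NTG against untransfected cells 6, 14 and 15 in the same order of effectors, the ASO 22 and the comparison of all groups 26.

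Counts over all genes moved by more than 1.5 times as follows. For mATXN2 against NTG, RfxCas13d called 193, against 434 with no filter, 707 with limma-trend adjusted over 10 comparisons, 355 with only the samples compared, 292 with the block and as few as 49 without a library. HiFi-RfxCas13d called 41, against 201, 269 and 91 in the first 3 of these, 66 with DESeq2 and as few as 21 without a library. DiCas7-11 called 131, against 366, 636 and 1, 286 with DESeq2, 251 with the block and 15 to 621 without a library. The difference between effectors called 0, against 154 with no filter and 2 with DESeq2. RfxCas13d NTG against untransfected called 1565, against 1014 without its replicate 1, and DiCas7-11 NTG 3044, against 1800 with only the samples compared.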

Other observations

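Rest, the repressor of many neuronal and secretory genes, was at a mean of 33.5 CPM in untransfected cells and 41.7 CPM with the ASO, a log2 fold change of 0.32 ± 0.063 (SE, edgeR adjusted p = 0.000134, Benjamini-Hochberg). It was named after its value was seen, and no relation to the members was tested.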
